A study of Homo sapiens with 12 samples.

Results

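The 10 assembly factors of respiratory complex I were followed on all 12 bead arrays of the study. They were chosen by their place in this family, and the family was chosen because 2 of its genes, NDUFAF5 and RTN4IP1, fall under everolimus in both cell lines. The members are NDUFAF1 to NDUFAF7, RTN4IP1, ACAD9 and ECSIT. They are 10 of the 11764 genes whose signal lay above background, and the filter on low signals removed none of the 10. Because their fall chose the set, the everolimus effects on NDUFAF5 and RTN4IP1 are given as a description with no test. The values of the other 8 members are no part of that reason, and their tests are given, although earlier results of these data were known when the set was named.

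Complex I is the largest enzyme of the respiratory chain. It takes electrons from NADH, passes them to coenzyme Q and pumps protons across the inner mitochondrial membrane. It is built in modules by dedicated factors that are absent from the finished enzyme, and inherited defects in these factors cause complex I deficiency. mTOR, the kinase that everolimus inhibits through FKBP12, is known to promote the synthesis of mitochondrial proteins.

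The arrays held total RNA from the established human lines MDA-MB-231 and BT-549, both from triple-negative breast cancers. The 4 groups of 3 arrays were MDA-MB-231 in 10 uM everolimus, MDA-MB-231 in DMSO, BT-549 in 10 uM everolimus and BT-549 in DMSO, all harvested after 48 h. DMSO is the drug's solvent. Nothing in the labels shows that the replicates were grown as separate cultures, so each p-value measures only how these samples vary, and that variation may be technical. Each line is a single line with its own genome, so a difference between them belongs to these lines only.

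Signals are on the log2 scale, where 1 unit is a doubling, and background lies at 6.55 with a floor for detection at 6.77. Background was left in the signal, so changes of dim probes are compressed. Between 9840 and 10360 of the tested genes lay above the floor on any array, and arrays of a group correlated at r = 0.927 to 0.995. Replicate 1 stood furthest from its group mean in all 4 groups: the SD of its deviations across genes was 0.229 to 0.393, against 0.0822 to 0.227 on the other 8 arrays. The oestrogen receptor gene ESR1 and the epithelial cadherin gene CDH1 were above the floor on 0 of 12 arrays, and the mesenchymal gene VIM averaged 13.73 to 14.32 in the 4 groups on its brighter probe. Other markers of these lists differed: on brightest probes KRT8 averaged 8.87 and 9.25, and EPCAM 8.34 and 7.91, in MDA-MB-231 everolimus and DMSO, while ZEB1 was above the floor on 2 arrays. ERBB2 was above the floor on 12 arrays on 1 of its 3 probes, at group means of 8.33 to 9.0. Blood cell markers (3 genes with probes) stayed within 6.48 to 6.60 in group means on their brightest probes. Of the endothelial markers VWF averaged 7.65 in BT-549 everolimus, against 6.54 in BT-549 DMSO, and CDH5 was above the floor on 0 arrays.

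The starts of the 3 members whose signals were lower on all 3 everolimus arrays than on all 3 DMSO arrays in both lines, NDUFAF5, RTN4IP1 and NDUFAF4, are shown because they are the genes the results turn on. The windows are from RefSeq (GRCh38.p14) and run from 250 bases before to 50 bases after the annotated start, 5′ to 3′ on the gene's own strand. NDUFAF5 lies at chr20:13784778-13785077 on the plus strand, RTN4IP1 at chr6:106629449-106629748 on the minus strand, and NDUFAF4 at chr6:96897842-96898141 on the minus strand. For RTN4IP1 RefSeq lists 2 starts, and the one nearer the gene body is shown. Capitals mark matches, on either strand, to 5 short motifs: CCAAT, the palindromic NRF1 motif, the ETS and GABP motif CCGGAAG, the YY1 motif AANATGGC and the SP1 motif GGGCGG.
NDUFAF5: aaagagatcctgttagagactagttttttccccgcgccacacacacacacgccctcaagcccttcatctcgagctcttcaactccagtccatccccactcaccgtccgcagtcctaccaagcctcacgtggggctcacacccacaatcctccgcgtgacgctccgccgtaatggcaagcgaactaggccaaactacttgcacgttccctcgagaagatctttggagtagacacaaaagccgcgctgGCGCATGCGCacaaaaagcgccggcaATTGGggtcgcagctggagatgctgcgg
RTN4IP1: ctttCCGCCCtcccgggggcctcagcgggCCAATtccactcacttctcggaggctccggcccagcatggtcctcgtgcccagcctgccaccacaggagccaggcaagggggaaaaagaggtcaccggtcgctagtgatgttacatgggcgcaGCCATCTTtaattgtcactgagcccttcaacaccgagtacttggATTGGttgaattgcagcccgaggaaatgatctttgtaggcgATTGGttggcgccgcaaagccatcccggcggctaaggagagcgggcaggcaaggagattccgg
NDUFAF4: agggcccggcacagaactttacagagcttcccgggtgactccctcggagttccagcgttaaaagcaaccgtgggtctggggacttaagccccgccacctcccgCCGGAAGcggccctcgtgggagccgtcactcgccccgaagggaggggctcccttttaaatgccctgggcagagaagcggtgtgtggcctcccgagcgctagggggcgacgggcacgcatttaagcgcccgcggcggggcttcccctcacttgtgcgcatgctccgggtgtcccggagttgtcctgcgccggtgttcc

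In the NDUFAF5 window the NRF1 motif begins at position -4 from the annotated start and so runs across it, and it matches on both strands. NRF1 is a transcription factor known to act on nuclear genes of the respiratory chain. The window also holds CCAAT once. The RTN4IP1 window holds no match to the NRF1 motif but 3 to CCAAT, 1 to the YY1 motif and 1 to the SP1 motif. The NDUFAF4 window holds the ETS and GABP motif at position -147 and no match to the other 4. None of the 5 motifs is thus in all 3 windows. Of the 9 members with a window, 2 had the NRF1 motif (NDUFAF5 and ACAD9), beside 5.78% of all 35116 windows in the table. The YY1 motif was in 3 (NDUFAF3, RTN4IP1 and ECSIT), beside 6.58%, and the ETS and GABP motif in 1, beside 10.3%. CCAAT was in 5, beside 34.6%, and the SP1 motif in 6, beside 45.0%. NDUFAF3, RTN4IP1 and ECSIT have several annotated starts, each with its own window, which gives them more chances of a match. A match is a run of letters and not a shown binding site.

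NDUFAF5 is the methyltransferase-like enzyme that hydroxylates an arginine of the subunit NDUFS7 early in assembly. On its brightest probe its log2 signal in MDA-MB-231 was 7.88, 7.92 and 7.88 in everolimus, against 8.99, 8.78 and 8.86 in DMSO. In BT-549 it was 7.77, 7.98 and 7.84 in everolimus, against 8.59, 8.56 and 8.82 in DMSO. No everolimus array reached the lowest DMSO array of its line. In bulk RNA, fewer cells with the transcript and less of it per cell cannot be told apart.

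The mean of NDUFAF5 differed by -0.98 (SE 0.10) in MDA-MB-231, a 1.98-fold lower signal. In BT-549 it differed by -0.79 (SE 0.10), 1.73-fold lower. In MDA-MB-231 this was rank 7 of 11764 from the largest fall, and in BT-549 rank 401. With 1 array left out the MDA-MB-231 difference ranged from -1.03 to -0.93 and the BT-549 difference from -0.85 to -0.71. A second NDUFAF5 probe, ILMN_2350607, gave -0.71 in MDA-MB-231 cells and -0.76 in BT-549 cells, while the third, ILMN_2262543, was above the floor on 0 of 12 arrays. From low to high, NDUFAF5 averaged 7.86 in BT-549 everolimus, 7.89 in MDA-MB-231 everolimus, 8.66 in BT-549 DMSO and 8.88 in MDA-MB-231 DMSO. The 2 everolimus groups overlapped, as did the 2 DMSO groups.

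RTN4IP1 is a mitochondrial oxidoreductase with roles in complex I assembly and in the making of coenzyme Q. Its single probe gave log2 signals of 7.53, 7.63 and 7.76 in MDA-MB-231 everolimus, against 8.45, 8.54 and 8.24 in MDA-MB-231 DMSO. In BT-549 it gave 7.40, 7.32 and 7.47 in everolimus, against 8.03, 8.13 and 8.29 in DMSO. Again the treated and vehicle arrays did not overlap in either line. The difference was -0.77 (SE 0.11) in MDA-MB-231 cells and -0.75 (SE 0.11) in BT-549 cells, 1.71-fold and 1.69-fold lower, at ranks 38 and 459 from the largest fall. Leaving out 1 array kept RTN4IP1 between -0.86 and -0.71 in MDA-MB-231 cells, and between -0.81 and -0.68 in BT-549 cells. With the background peak subtracted, the differences of RTN4IP1 became -0.93 and -0.95 (MDA-MB-231 and BT-549), and those of NDUFAF5 became -1.14 and -0.93.

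**Figure D1:**
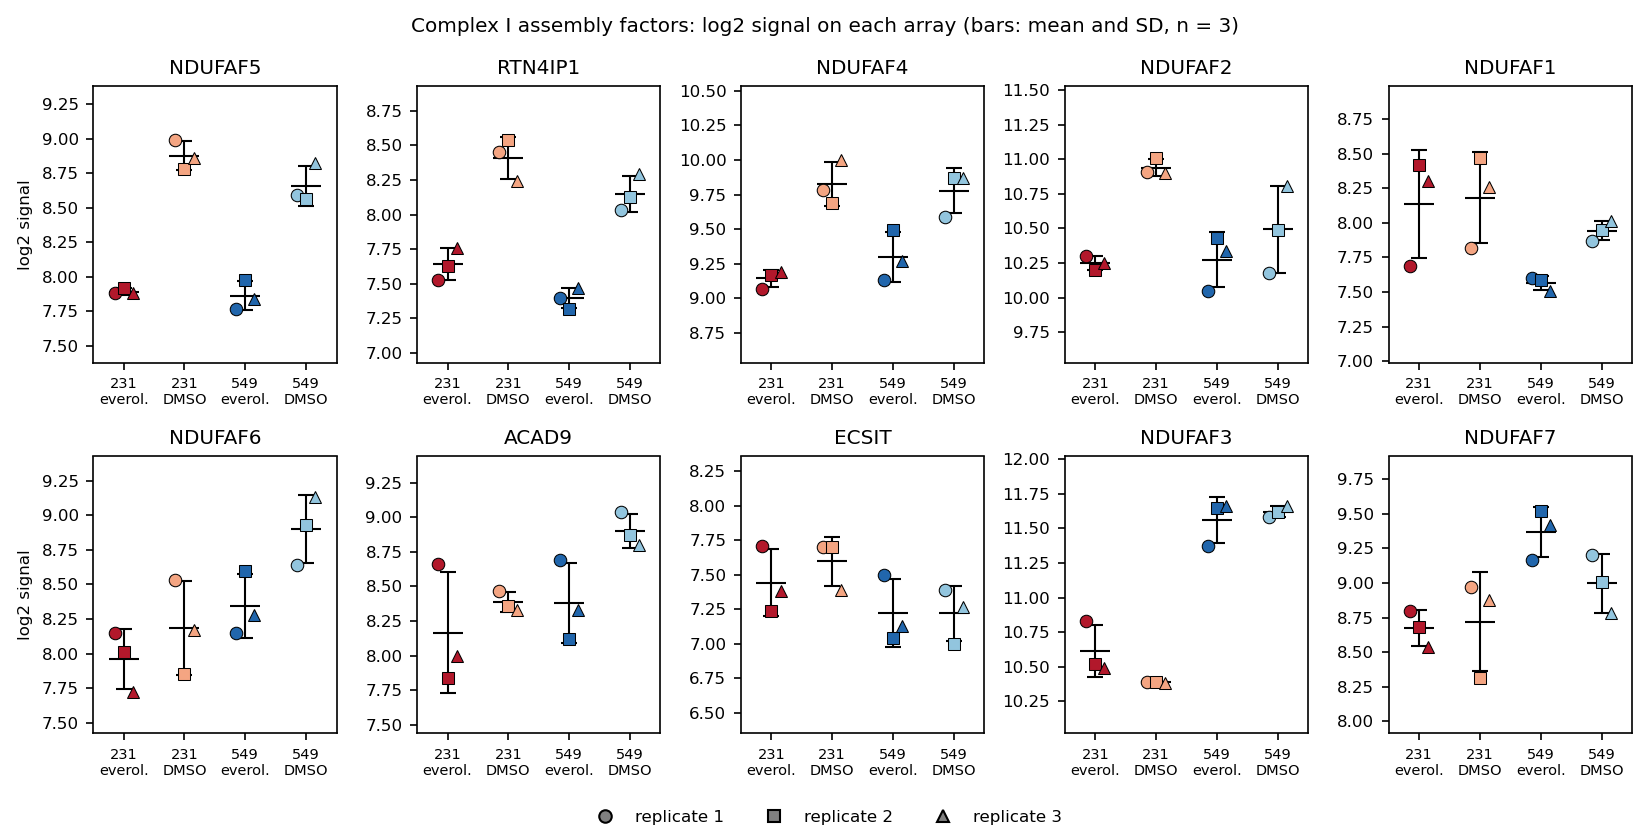
Log2 signal (vertical axes, each spanning 2 log2 units) of the 10 assembly factors on every array, on the brightest probe, by group along the horizontal axis. Points are single arrays with the replicate number as shape, and bars are the mean and SD of 3 arrays. NDUFAF5, RTN4IP1 and NDUFAF4 lay lower on all everolimus arrays than on all DMSO arrays in both lines.

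The question for the other 8 members was whether everolimus moved them too. In BT-549 NDUFAF4, a factor of the early peripheral arm, fell 1.39-fold, and it was the only one of the 8 that passed the test on all arrays. In MDA-MB-231 none passed, although NDUFAF4 and NDUFAF2 were 1.60-fold and 1.61-fold lower there with no overlap of the arrays. Limma called 0 of the 8 in MDA-MB-231, beside 0.153% of all 11764 genes called and 0.051% called lower. At an unadjusted p under 0.05 there were 2 of the 8, beside 10.6% of all genes. In BT-549 it called 1 of 8, lower, beside 16.8% of all genes called and 7.23% called lower. There 3 of the 8 had an unadjusted p under 0.05, beside 31.6% of all genes.

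The median log2 fold change of the 8 was -0.19 in MDA-MB-231 cells and -0.30 in BT-549 cells, beside medians of -0.01 and 0.04 over all tested genes. In MDA-MB-231 7 of the 8 had a value below 0, and in BT-549 6 of the 8, against 51.8% and 44.8% of all genes. All 3 everolimus arrays lay below all 3 DMSO arrays for 2 of the 8 in MDA-MB-231 (NDUFAF2 and NDUFAF4), beside 9.94% of all genes. In BT-549 the same held for 4 of the 8 (NDUFAF1, NDUFAF4, NDUFAF6 and ACAD9), beside 14.1%. All 3 lay above for 1, NDUFAF3 in MDA-MB-231, beside 8.63%, and for 0 in BT-549, beside 18.5%. With everolimus 2 of 3 tested markers of mesenchymal-like lines, AXL and CD44, rose in BT-549 on their brightest probes, and 0 of 3 in MDA-MB-231. A second CD44 probe gave group means of 8.10 in BT-549 everolimus and 9.0 in BT-549 DMSO, the other way. The part of that change in these results was not tested.

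NDUFAF3 and NDUFAF4 work together on the module that carries electrons to coenzyme Q. NDUFAF4 had log2 signals of 9.07, 9.17 and 9.19 in MDA-MB-231 everolimus, against 9.78, 9.69 and 10.00 in MDA-MB-231 DMSO. In BT-549 it had 9.13, 9.49 and 9.27 in everolimus, against 9.59, 9.87 and 9.87 in DMSO. The groups did not overlap in either line, and the gap between them was smaller in BT-549.

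NDUFAF4 fell in BT-549 by 0.48 on the log2 scale (SE 0.13, adjusted p = 0.0274). The MDA-MB-231 difference was -0.68 (SE 0.13, adjusted p = 0.0665). NDUFAF4 also passed in MDA-MB-231 once the replicate number entered as a block (limma adjusted p = 0.0403), although pairing by number is not shown. It passed too with replicate 1 of everolimus-treated BT-549 left out (0.0352), an array that enters only through the shared spread. In BT-549 its call was lost without DMSO replicate 2 (adjusted p = 0.106), DMSO replicate 3 (0.0782) or everolimus replicate 3 (0.09), with a trended robust prior (0.0573) and on the line's own 6 arrays (0.0806). Its second probe, ILMN_1659524, gave 8.22, 8.11 and 8.09 in MDA-MB-231 everolimus, against 8.67, 8.45 and 8.54 in DMSO, and differed by -0.82 in BT-549. Both probes of NDUFAF4 were thus lower in both lines, with the larger difference on a different probe in each.

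Its partner NDUFAF3 was not called in either line. NDUFAF3 had 10.83, 10.52 and 10.49 in MDA-MB-231 everolimus, against 10.39, 10.39 and 10.38 in DMSO (log2 difference 0.23, 95% interval -0.03 to 0.48, adjusted p = 0.535). In BT-549 it had 11.37, 11.65 and 11.66 in everolimus, against 11.58, 11.62 and 11.66 in DMSO (-0.06, interval -0.31 to 0.19, adjusted p = 0.779). The everolimus arrays that stood apart from the other pair in each line were those of replicate 1, high in MDA-MB-231 and low in BT-549. The other 2 NDUFAF3 probes were above the floor on 0 and 2 arrays.

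NDUFAF2 is a relative of the subunit NDUFA12 and rides on late intermediates until NDUFA12 takes its place. It had log2 signals of 10.30, 10.20 and 10.25 in MDA-MB-231 everolimus, against 10.91, 11.01 and 10.90 in MDA-MB-231 DMSO. In BT-549 the values were 10.05, 10.43 and 10.34 in everolimus, against 10.18, 10.49 and 10.81 in DMSO. The arrays were fully apart in MDA-MB-231 and overlapped in BT-549.

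In MDA-MB-231 NDUFAF2 differed by -0.69 on the log2 scale (SE 0.15, adjusted p = 0.101). In BT-549 it differed by -0.22 (SE 0.15, adjusted p = 0.359). It passed in MDA-MB-231 with the replicate block (limma adjusted p = 0.0455) and with replicate 1 of everolimus-treated BT-549 left out (0.0485). The effects in the 2 lines were not shown to differ (NDUFAF2 difference 0.47, 95% interval -0.003 to 0.94, adjusted p = 0.321). NDUFA12 showed the reverse order of the lines: it fell in BT-549 (-1.09, adjusted p = 0.00319) and differed by -0.10 in MDA-MB-231 (adjusted p = 0.937). No test set the 2 genes against each other.

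NDUFAF1, ACAD9 and ECSIT belong, with TMEM126B, to the complex that assembles the proximal part of the membrane arm. NDUFAF1 had 7.60, 7.59 and 7.51 in BT-549 everolimus, against 7.87, 7.95 and 8.01 in BT-549 DMSO, with no overlap (log2 difference -0.38, adjusted p = 0.215). In MDA-MB-231 its groups overlapped, at 7.69, 8.42 and 8.30 in everolimus and 7.82, 8.47 and 8.26 in DMSO (-0.05, adjusted p = 0.987). Both MDA-MB-231 groups held 1 low array, that of replicate 1.

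ACAD9, a member of the acyl-CoA dehydrogenase family, had 8.69, 8.12 and 8.33 in BT-549 everolimus, against 9.04, 8.87 and 8.80 in BT-549 DMSO. These groups did not overlap, but replicate 1 of the everolimus group came close to the lowest DMSO array. On the log2 scale ACAD9 differed by -0.52 (SE 0.20, adjusted p = 0.104). Its fall passed when replicate 1 of everolimus-treated BT-549 was left out (-0.68, adjusted p = 0.0326), or that of MDA-MB-231 (0.0324). In MDA-MB-231 ACAD9 had 8.66, 7.84 and 8.0 in everolimus, against 8.47, 8.36 and 8.33 in DMSO (-0.22, adjusted p = 0.818). There the replicate 1 everolimus array stood above every DMSO array and the other 2 below.

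ECSIT, which also has a role in Toll-like receptor signalling, had the smallest response of the 8 in BT-549, at 7.50, 7.04 and 7.13 in everolimus and 7.39, 7.0 and 7.27 in DMSO (log2 fold change 0.003, 95% interval -0.37 to 0.38). In MDA-MB-231 it had 7.71, 7.24 and 7.38 in everolimus, against 7.70, 7.70 and 7.39 in DMSO (-0.15, adjusted p = 0.867). Both pairs of groups overlapped. TMEM126B of the same complex differed by -0.31 in MDA-MB-231 (adjusted p = 0.443), and by -0.33 in BT-549 (0.122), and its second probe gave -0.36 and -0.73. On the brightest probes none of the 4 genes named here was called in either line.

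NDUFAF6 is needed for the module around the subunit ND1. It had 8.15, 8.60 and 8.28 in BT-549 everolimus, against 8.64, 8.93 and 9.13 in BT-549 DMSO, just short of overlapping (log2 difference -0.56, SE 0.20, adjusted p = 0.0789). In MDA-MB-231 the groups overlapped, at 8.15, 8.01 and 7.72 in everolimus and 8.53, 7.85 and 8.17 in DMSO (-0.22, adjusted p = 0.805). NDUFAF7 is a mitochondrial methyltransferase needed for complex I assembly. Its brightest probe, ILMN_2394132, gave 9.17, 9.52 and 9.42 in BT-549 everolimus, against 9.20, 9.01 and 8.78 in DMSO (log2 fold change 0.37, adjusted p = 0.182). Its other 2 probes pointed the other way, with -0.25 (ILMN_1722186) and -0.27 (ILMN_1787370), and the mean of the 3 gave -0.05. No direction can be given for NDUFAF7 in that line. The brightest probe in MDA-MB-231 gave 8.80, 8.68 and 8.54 in everolimus, against 8.97, 8.31 and 8.88 in DMSO, with overlap (-0.05, adjusted p = 0.985). There ILMN_1722186 gave -0.26, ILMN_1787370 gave -0.18, and the mean of the 3 probes gave -0.16 (adjusted p = 0.808).

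**Figure D2:**
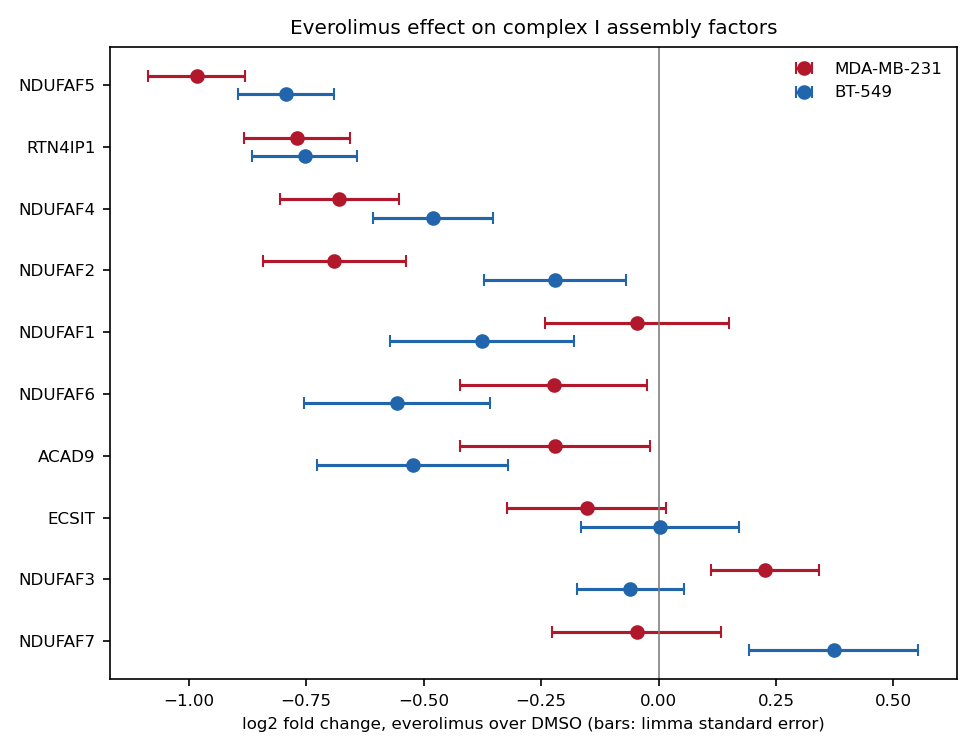
Log2 fold change of everolimus over DMSO (horizontal axis) for each assembly factor in MDA-MB-231 (red) and BT-549 (blue), with bars of 1 limma standard error from the fit to all 12 arrays. The values of NDUFAF5 and RTN4IP1, which chose the set, are furthest below 0 in both lines, and NDUFAF4 is below 0 in both at -0.68 and -0.48.

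**Figure D3:**
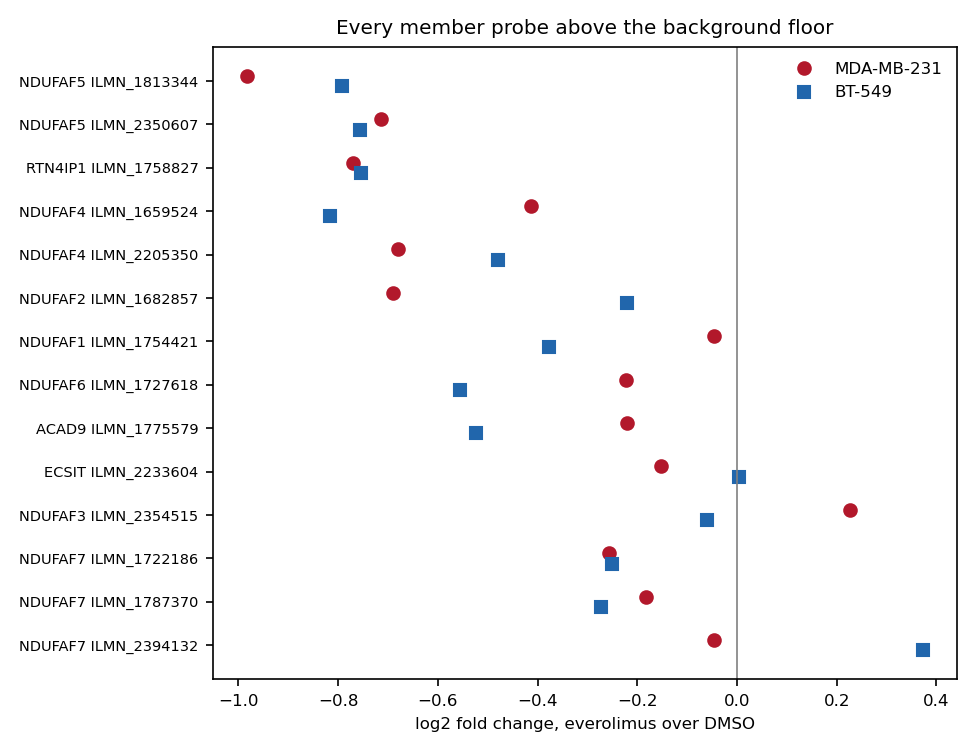
Log2 fold change of everolimus over DMSO (horizontal axis) for each of the 14 member probes above the floor (rows), as differences of group means of 3 arrays, in MDA-MB-231 (circles) and BT-549 (squares). The 2 probes of NDUFAF5 and the 2 of NDUFAF4 are below 0 in both lines, while the 3 probes of NDUFAF7 disagree in BT-549.

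Whether the 2 lines responded differently was tested for the 8 members, and limma called 0, beside 0.638% of all genes (0.315% higher and 0.323% lower), with 0 at an unadjusted p under 0.05 (15.7% of all genes). The estimates, BT-549 minus MDA-MB-231, ran from -0.33 (NDUFAF6) to 0.47 (NDUFAF2), and all 8 intervals held 0. Standard errors of 0.16 to 0.29 leave room for differences of that size, so these arrays do not show that the lines respond alike. For NDUFAF5 and RTN4IP1, chosen for falling in both lines, the differences were 0.19 (SE 0.15) and 0.02 (SE 0.16).

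The lines were also compared under DMSO, which the choice of the set did not use. The share of members called was close to that of all genes. NDUFAF3 was 2.35-fold higher in BT-549 than in MDA-MB-231 under DMSO, at 11.58, 11.62 and 11.66 in BT-549 and 10.39, 10.39 and 10.38 in MDA-MB-231 (log2 difference 1.23, SE 0.11, limma adjusted p = 2.08e-05). This call held in 12 of 12 fits with 1 array left out. NDUFAF6 was 1.64-fold higher in BT-549 (0.72, adjusted p = 0.0189) and NDUFAF2 1.36-fold lower (-0.45, adjusted p = 0.0458). Limma thus called 3 of 10 members, 2 higher and 1 lower in BT-549, beside 30.4% of all genes, 14.9% higher and 15.5% lower. All BT-549 arrays lay above all MDA-MB-231 arrays for 3 of 10 (NDUFAF3, NDUFAF6 and ACAD9), beside 22.9% of all genes, and below for 1 (NDUFAF2), beside 25%. Of 3 tested epithelial markers limma called 2 lower in BT-549. Of 3 tested markers of mesenchymal-like lines it called 1 lower there too, AXL (-1.32, adjusted p = 0.00934). All 3 were below 0 on their brightest probes. The part of either list in these differences was not tested.

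The calls of NDUFAF6 and NDUFAF2 depended on single arrays. NDUFAF6 kept its call in 8 of 12 such fits and lost it without MDA-MB-231 DMSO replicate 2 (adjusted p = 0.0766) or 3 (0.054) or BT-549 DMSO replicate 2 (0.0595) or 3 (0.0666). NDUFAF2 kept it in 2 of 12 fits, without BT-549 DMSO replicate 3 or BT-549 everolimus replicate 1, and its adjusted p ranged from 0.00941 to 0.162. NDUFAF5 (-0.22, adjusted p = 0.131) and RTN4IP1 (-0.26, adjusted p = 0.104) were not called between the lines, nor was NDUFAF4 (-0.05, 95% interval -0.33 to 0.23, adjusted p = 0.817). ACAD9 (0.52, adjusted p = 0.077), ECSIT (-0.38, 0.116), NDUFAF7 (0.28, 0.275) and NDUFAF1 (-0.24, 0.389) were not called either.

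Several members sit back to back with another gene. RefSeq places a gene start on the opposite strand within 1000 bases of the start of 6 of the 9 members with a window. The share over all genes was not computed, so this count is not shown to be unusual. Members with several starts also have more chances of a neighbour. ESF1, a nucleolar protein gene, starts 109 bases from NDUFAF5 and was not called in either line. It had 6.90, 7.03 and 7.04 in MDA-MB-231 everolimus, against 7.01, 7.05 and 7.08 in DMSO (log2 difference -0.06, SE 0.11, adjusted p = 0.941), and differed by -0.08 (SE 0.11, adjusted p = 0.659) in BT-549. The ESF1 signal lies near the floor, which compresses any change.

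QRSL1, which starts 80 bases from RTN4IP1, was above the floor on 1 of 12 arrays, and KLHL32, 192 bases from NDUFAF4, on 0, so neither was tested. ERCC8, a gene of transcription-coupled DNA repair 135 bases from NDUFAF2, fell in BT-549 (-0.48, SE 0.10, adjusted p = 0.0118), where NDUFAF2 differed by -0.22. In MDA-MB-231 ERCC8 differed by -0.09 (adjusted p = 0.887), where NDUFAF2 differed by -0.69. CEBPZ, 62 bases from NDUFAF7, differed by -0.16 in MDA-MB-231 cells and 0.00 in BT-549 cells (adjusted p = 0.876 and 1). DALRD3, 145 bases from the closest start of NDUFAF3, differed by 0.20 and -0.03 (adjusted p = 0.797 and 0.938). The signals of ERCC8 (6.69 to 7.37) and DALRD3 (6.77 to 7.48) also lie near the floor, which compresses any change.

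The genes with the pattern most like each of the falling pair were found from Pearson's r over the 12 arrays, after the mean of each line was taken off. The arrays share treatment groups, so these values are a description, and the likeness of NDUFAF5 and RTN4IP1 to each other (r = 0.953, Spearman 0.788) follows in part from their choice for falling in both lines. Beside RTN4IP1 the genes closest to NDUFAF5 were MRPL19 (r = 0.953, Spearman 0.900), PIAS2 (0.950 and 0.897), MRPL36 (0.950 and 0.844) and PSMA2 (0.947 and 0.823). By Spearman all 4 stood above RTN4IP1. For RTN4IP1 the closest beside NDUFAF5 were UQCR10 (r = 0.965, Spearman 0.897), MRPL22 (0.953 and 0.743), ALG8 (0.952 and 0.888) and PSMA2 (0.951 and 0.818). MRPL19, MRPL36 and MRPL22 encode proteins of the mitochondrial ribosome, UQCR10 a small subunit of respiratory complex III, and PSMA2 a subunit of the proteasome core. Among the members NDUFAF4 (r = 0.943) and NDUFAF2 (0.843) came next to NDUFAF5, ECSIT had 0.19, NDUFAF7 -0.26 and NDUFAF3 -0.32.

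Beside these, UQCR10 differed by -0.82 in MDA-MB-231 cells and -1.07 in BT-549 cells. Of its other probes one gave -0.13 and -0.11 in these lines and the other -0.12 and -0.57. PIAS2 differed by -0.45 and -0.32. Its other probes above the floor gave -0.02 and 0.18, -0.21 and -0.12, and -0.01 and -0.15. MRPL19 gave -0.67 and -0.47, MRPL36 -0.55 and -0.34, and PSMA2 -0.49 and -0.38. MRPL22, with -0.61 and -0.64, and ALG8, with -0.71 and -0.59, were lower on both of their probes in both lines.

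The rest of complex I and its builders give the setting. Of 15 further complex I assembly factors limma called 3 lower and 2 higher in BT-549, beside 7.23% and 9.54% of all genes, with a list median of -0.09. The falls were LYRM2 (-1.01, adjusted p = 0.0271), TMEM126A (-0.76, 0.0212) and AIFM1 (-0.60, 0.0465). The rises were NUBPL, which delivers iron-sulphur clusters (0.80, 0.014), and TMEM70 (0.67, 0.0258), although a second TMEM70 probe gave -0.10. AIFM1, the fifth by p-value, was named after its value was seen. In MDA-MB-231 limma called 0 of the 15, with 2 at an unadjusted p under 0.05, beside 10.6% of all genes, and a median of -0.10.

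Of 6 tested core subunits encoded in the nucleus limma called 1 lower in BT-549, NDUFS8 (-0.54, adjusted p = 0.00929), beside 7.23% of all genes. There 3 of the 6 had an unadjusted p under 0.05, beside 31.6% of all genes. In MDA-MB-231 limma called 0, and 0 passed an unadjusted p of 0.05, beside 10.6%. NDUFS7, whose arginine NDUFAF5 modifies, differed by -0.30 in MDA-MB-231 (adjusted p = 0.616) and -0.06 in BT-549 (0.864). Among 29 accessory subunits limma called 11 lower and 0 higher in BT-549, beside 7.23% and 9.54% of all genes, with a median of -0.36. The smallest p-values were those of NDUFS5 (-0.86, adjusted p = 0.00147), NDUFB6 (-0.96, 0.00309), NDUFA12 (-1.09) and NDUFA1 (-0.89, 0.00342). In MDA-MB-231 26 of the 29 had values below 0 and the median was -0.20, but limma called 0. Of the 29 there, 9 had an unadjusted p under 0.05, beside 10.6% of all genes. The NDUFA5 difference of -0.48 there had the smallest p-value (adjusted p = 0.0856).

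**Figure D4:**
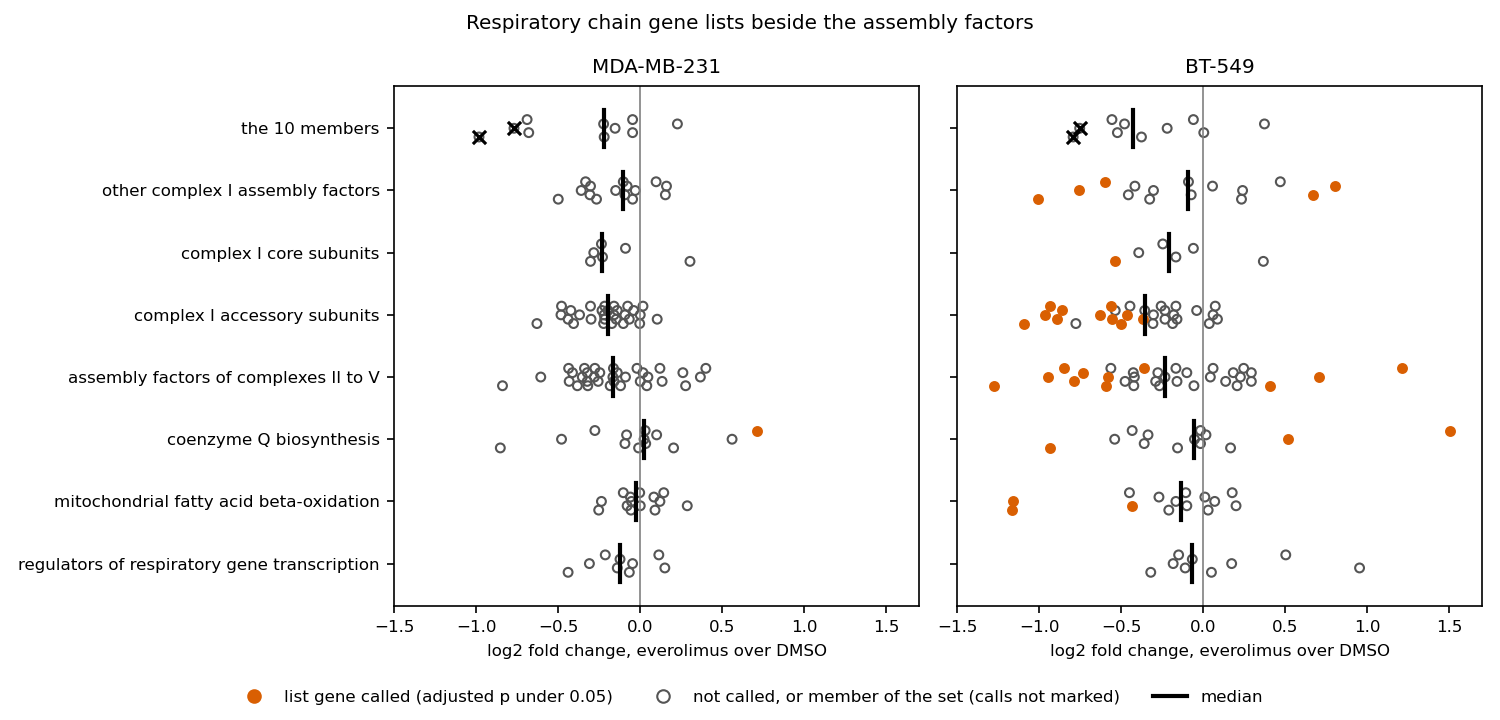
Log2 fold change of everolimus over DMSO (horizontal axis) for each gene of the assembly factor set and of 7 further lists (rows), in MDA-MB-231 (left) and BT-549 (right). Orange points are list genes called by limma, black bars are medians, and crosses mark NDUFAF5 and RTN4IP1. Accessory subunits of complex I centre on -0.20 in MDA-MB-231 cells and -0.36 in BT-549 cells.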

How the data were processed

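The submitters' deposited table of log2 signals (47230 probes, 12 arrays) was used as it stands. The mirVana and TotalPrep kits and Cy3 dye were used, per the labels' protocols. The sources used here give neither software nor background correction. The deposited log2 values share their distribution (17467 probes above the floor on every array), as after quantile normalization. A deposited table of unnormalized signals has 12 columns that match no sample label and was not used.

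The floor was the background peak (6.55) plus 3 SDs (0.0724), passed on at least 3 arrays. Platform annotation gave 1 symbol to 30113 probes; 8 have several and 17109 are unnamed. The set has 17 probes, 14 above the floor, and the brightest per gene was tested. limma 3.58.1 (R 4.3.3) fitted 4 group means to all 12 arrays over 11764 genes (8 residual degrees of freedom, prior 2.89), two-sided, with Benjamini-Hochberg adjustment over all genes and a threshold of 0.05. The fit was tested on simulated data with independent noise, which lacks the wider deviations of replicate 1. That run thus gives no error rate for these arrays. Figures used matplotlib 3.10.9.

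All members are named with all probes. Lists give up to 4 genes by smallest p in each line, and those named after their values were seen are marked. Neighbours are RefSeq starts within 1000 bases, and 5 genes of like pattern are named. Members and lists were chosen with earlier results of these data known. The labels do not say that equal replicate numbers belong together. Deviations of same-number everolimus and DMSO arrays correlated at r = 0.735, 0.544 and 0.418 in MDA-MB-231. There everolimus replicate 3 was closer to DMSO replicate 2 (r = 0.546), so only replicate 1 was set apart by number. In BT-549 the same-number values were 0.5, 0.0787 and 0.411, and everolimus replicate 2 was closer to DMSO replicate 3 (0.465). Everolimus replicate 1 of BT-549 had r = -0.085 and -0.494 with DMSO replicates 2 and 3. DMSO replicate 1 had -0.47 and -0.416 with everolimus replicates 2 and 3, so replicate 1 was set apart in BT-549 too. Pairing by number is thus not shown in either line.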

Additional observations from a re-analysis of the deposited data

How the results depend on the processing

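The counts of called members moved with the model and with the arrays used. For the 8 members other than NDUFAF5 and RTN4IP1, the count in MDA-MB-231 was 0 on all arrays, 2 with the replicate block and 2 without the 4 replicate 1 arrays, and 0 to 2 with 1 array left out. In BT-549 it was 1 on all arrays, 0 with a trended robust prior, 0 on the line's own 6 arrays and 5 without the 4 replicate 1 arrays, and 0 to 2 with 1 array left out. The replicate block, whose numbers are not shown to pair in either line, gave 4 there. The block changed no call of the difference between lines and cannot give the DMSO comparison of the lines, since its blocks lie within a line. That comparison had 3 of 10 called, 5 without the 4 replicate 1 arrays and 1 to 4 with 1 array left out. Leaving out all replicate 1 arrays raised calls over all genes as well, to 6.85%, 38.2% and 45.5% in these 3 comparisons. The members it added in BT-549 were NDUFAF1, NDUFAF6 and ACAD9, lower, and NDUFAF7, higher on its brightest probe. For the lists, where it was chosen after seeing the data, that setting gave 17 accessory subunits of complex I lower in BT-549 (11 on all arrays), 3 core subunits lower (1), and 6 lower and 4 higher of the further assembly factors (3 and 2). In coenzyme Q synthesis it gave 5 lower (1). In MDA-MB-231 it gave 2 further assembly factors, 3 accessory subunits, 2 factors of complexes II to V and 2 genes of coenzyme Q synthesis lower (0 each).

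Small differences changed sign. Without the 4 replicate 1 arrays NDUFAF7 in MDA-MB-231 was 0.015, NDUFAF3 in BT-549 0.015, ECSIT in BT-549 -0.05, the RTN4IP1 line difference -0.12 and NDUFAF4 between lines in DMSO 0.025. The mean of all probes gave -0.05 for NDUFAF7 in BT-549, -0.10 for the NDUFAF4 line difference and 0.10 for NDUFAF4 in DMSO. With tested medians made equal, ECSIT in BT-549 was -0.067 and the RTN4IP1 line difference -0.053, which was -0.017 with the background peak subtracted. With 1 array left out, NDUFAF1 in MDA-MB-231 ranged from -0.23 to 0.18, NDUFAF7 there from -0.25 to 0.078, NDUFAF3 in BT-549 from -0.11 to 0.035, ECSIT in BT-549 from -0.14 to 0.095, the RTN4IP1 line difference from -0.048 to 0.10 and NDUFAF4 in DMSO from -0.11 to 0.047. The cause of these shifts was not tested. NDUFAF2, NDUFAF4, NDUFAF5, NDUFAF6, RTN4IP1 and ACAD9 stayed below 0 in both lines in every alternative run, as did ECSIT in MDA-MB-231 and NDUFAF1 in BT-549. Signals near the floor and 3 arrays a group limit what could be detected.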

Other observations

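Assembly factors of the other respiratory complexes moved both ways in BT-549. Of 33 tested, limma called 8 lower and 3 higher there, beside 7.23% and 9.54% of all genes, with a list median of -0.23. SCO1, a copper chaperone of complex IV, fell by 1.27 on the log2 scale (9.36 ± 0.59 in everolimus and 10.63 ± 0.05 in DMSO, SD, n = 3 each, limma adjusted p = 0.009). COX16 (-0.95, 0.00229), PET100 (-0.79, 0.00518) and COX14 (-0.58, 0.00697) fell too. A second, dim COX16 probe gave -0.13. The 3 rises were FMC1 (1.21, adjusted p = 0.0197), TTC19 (0.70, 0.0189) and COX15 (0.41, 0.0481), named after their values were seen. In MDA-MB-231 limma called 0 of the 33, with 9 at an unadjusted p under 0.05, beside 10.6% of all genes, and a median of -0.17. SDHAF3 differed most there by p-value (-0.84, adjusted p = 0.186), and its second probe gave -0.37.

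RTN4IP1 also bears on coenzyme Q. Of 13 tested genes of its synthesis limma called 1 in MDA-MB-231, COQ8A, a kinase-like protein of the pathway, which rose by 0.71 (adjusted p = 0.0229), beside 0.102% of all genes called higher. At an unadjusted p under 0.05 there were 5 of the 13 in MDA-MB-231, beside 10.6% of all genes, with a list median of 0.02. Next by p-value there were PDSS1 (-0.85, adjusted p = 0.0665), COQ5 (0.56, 0.144) and COQ3 (-0.48, 0.393), none of them called. A second PDSS1 probe gave -0.36. In BT-549 limma called 2 higher and 1 lower, beside 9.54% and 7.23% of all genes. COQ8A rose by 1.51 (adjusted p = 4.71e-05) and COQ8B by 0.52 (0.0121), while the methyltransferase gene COQ3 fell (-0.93, 0.0107). Fatty acid beta-oxidation, the pathway of the ACAD9 relatives, had 3 of 14 genes lower and 0 higher in BT-549, beside the same shares. ETFA and ETFDH, which carry electrons from acyl-CoA dehydrogenases to coenzyme Q, fell by 1.17 and 1.16 (adjusted p = 0.000927 and 0.00139), and the carnitine carrier SLC25A20 fell by 0.44 (0.0254). In MDA-MB-231 limma called 0 of the 14, beside 0.153% of all genes, with 0 at an unadjusted p under 0.05, beside 10.6%. Of 9 tested regulators of respiratory gene transcription it called 0 in either line, with 1 in MDA-MB-231 cells and 2 in BT-549 cells at an unadjusted p under 0.05, beside 10.6% and 31.6% of all genes.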
